A study of Homo sapiens with 6 samples.

Results

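HHEX, MSI2, CD34 and KIT are genes that blood stem and progenitor cells express. They were taken from the gene count table by their symbols, as 4 of its 16315 genes. All 4 reached a mean of at least 1 CPM (counts scaled to a common library size) over the libraries and so were among the 13841 genes tested. The cells were F36P, an established human cell line used as a model of acute erythroid leukaemia. They had been transduced with a CRISPR guide RNA against the histone deacetylase gene HDAC7 (sgHDAC7, labelled HDAC7 knockout) or a non-targeting guide (sgNT, labelled WT). Both groups had been selected in puromycin at 1 µg/ml for 4 days, per the series' design text, and each held 3 bulk RNA-seq libraries. The labels do not call either population a clone.

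HHEX is a homeodomain transcription factor that acts mostly as a repressor and is needed for normal blood formation in mice. MSI2 is an RNA-binding protein of the Musashi family. It controls the translation of its target messages and helps to maintain blood stem cells and myeloid leukaemia cells. CD34 is a sialomucin of the cell surface and the classical marker of human stem and progenitor cells. KIT is the receptor tyrosine kinase for stem cell factor. As red cell precursors mature, CD34 and later KIT disappear from their surface.

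The 4 genes lie on different chromosomes. HHEX spans chr10:92689951-92695646 and MSI2 chr17:57255851-57684685, both on the plus strand (GRCh38, GENCODE 29). CD34 spans chr1:207880972-207911402 on the minus strand and KIT chr4:54657918-54740715 on the plus strand. GENCODE 29 places other transcripts within MSI2 and CD34, antisense ones among them, but none shares an exonic base with the 4 genes. Their promoters are shown so that a reader can compare the sequences next to their starts. Any link of these sequences to the guide differences was not tested. Each window runs from 250 bases before the start to 50 after it (RefSeq, GRCh38.p14), on the strand of the gene. The windows are chr10:92689705-92690004, chr17:57255601-57255900, chr1:207911076-207911375 and chr4:54657707-54658006. Capitals mark the ETS factor core GGAAG or its complement CTTCC.
HHEX: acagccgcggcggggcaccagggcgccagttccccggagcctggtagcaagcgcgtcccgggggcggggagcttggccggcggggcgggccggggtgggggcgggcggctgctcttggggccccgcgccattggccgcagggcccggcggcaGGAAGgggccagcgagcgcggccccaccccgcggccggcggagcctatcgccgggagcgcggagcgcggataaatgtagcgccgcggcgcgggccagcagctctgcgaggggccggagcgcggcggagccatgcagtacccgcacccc
MSI2: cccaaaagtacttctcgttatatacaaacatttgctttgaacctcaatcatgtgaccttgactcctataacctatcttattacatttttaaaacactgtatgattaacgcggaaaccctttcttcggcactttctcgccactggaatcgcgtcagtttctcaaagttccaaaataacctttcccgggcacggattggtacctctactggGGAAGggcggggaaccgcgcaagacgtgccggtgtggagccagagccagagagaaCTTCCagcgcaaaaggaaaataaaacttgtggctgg
CD34: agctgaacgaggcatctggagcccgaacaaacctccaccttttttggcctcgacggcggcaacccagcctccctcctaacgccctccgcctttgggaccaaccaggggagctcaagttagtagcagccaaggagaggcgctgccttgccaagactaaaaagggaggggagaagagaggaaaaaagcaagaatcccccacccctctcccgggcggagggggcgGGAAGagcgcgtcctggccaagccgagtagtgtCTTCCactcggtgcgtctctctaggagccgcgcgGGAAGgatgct
KIT: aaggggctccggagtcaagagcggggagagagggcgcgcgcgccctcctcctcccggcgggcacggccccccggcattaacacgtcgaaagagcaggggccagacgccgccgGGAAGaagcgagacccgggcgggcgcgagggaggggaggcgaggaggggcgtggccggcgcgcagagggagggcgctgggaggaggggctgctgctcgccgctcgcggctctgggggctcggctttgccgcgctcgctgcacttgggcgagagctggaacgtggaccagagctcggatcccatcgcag
The ETS core occurred once in the HHEX and KIT windows, at 2 places in the MSI2 window and at 3 in the CD34 window. It is common, since 71.9% of 35116 promoter windows hold it. The erythroid GATA motif, searched as AGATAA or TGATAA on both strands, occurred in 0 of these 4 windows and in 16.3% of all windows. The ATF4 element TGATGNAA occurred in 0 of the 4 and in 3.62% of all. The SP1 motif GGGCGG occurred in all 4 windows, with 4 matches in HHEX, 2 in CD34 and 1 each in MSI2 and KIT, against 45% of all windows. The base G or C made up 80.3% of the HHEX window, 74.3% of the KIT, 61.7% of the CD34 and 46.3% of the MSI2 window, against a median of 58.7%. RefSeq gives MSI2 a second start, whose window is not shown. That second window held 0 SP1 matches and 1 ETS core, and G or C made up 67.7% of it.

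Library totals ran from 11645003 to 12521195 counts in sgHDAC7 and from 10039693 to 11149179 in sgNT. The targeted gene checked the labels, with HDAC7 at 194.2, 239 and 246 CPM with sgHDAC7 and at 449.9, 460.4 and 462 CPM with sgNT. Its message in sgHDAC7 therefore averaged 49.5% of that in sgNT. In both groups replicate 1 differed more from the other libraries than these did from each other. Within a group, the chi-square per degree of freedom was 3.06 (sgHDAC7) and 3.32 (sgNT) between replicates 2 and 3, and 7.2 to 14.1 where replicate 1 was compared. By the labels these are biological replicates, with no word on separately grown cultures, so p-values measure the spread between these libraries, which may be technical. The 15 erythroid marker genes had summed levels of 17620 to 25030 CPM in sgHDAC7 and 12150 to 18580 CPM in sgNT, among them haemoglobin chains, GATA1 and KLF1.

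HHEX was lower in sgHDAC7. It had 76.0, 64.1 and 67.2 CPM in the sgHDAC7 libraries and 105, 122.5 and 117 CPM in the sgNT libraries. The groups did not overlap, and the lowest sgNT library stood 1.38 times above the highest sgHDAC7 library. HHEX averaged 69.1 ± 6.17 CPM with sgHDAC7 and 115 ± 9.02 CPM with sgNT (SD, n = 3 each), a level of 60.1%. Its log2 fold change was -0.73 ± 0.09 (SE; edgeR quasi-likelihood test, Benjamini-Hochberg adjusted p = 0.00526), the 31st smallest p of 13841. In bulk RNA, fewer cells that express a gene and less of its RNA per cell cannot be told apart. The libraries held 743 to 944 HHEX counts in sgHDAC7 and 1062 to 1363 in sgNT. Counting alone would give a coefficient of variation of 3.45% in sgHDAC7 and 2.86% in sgNT, against 8.93% and 7.85% measured. With 5 libraries HHEX missed the threshold without sgHDAC7 replicate 2 or 3 (log2 -0.69 and -0.72, edgeR adjusted p = 0.0599 and 0.0603) and passed without any other single library. An exact two-sided permutation test on HHEX alone gave p = 0.1, and no smaller value is possible with 3 libraries a group.

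MSI2 was also lower, by a smaller amount. It had 31.7, 31.4 and 28.2 CPM in the sgHDAC7 libraries and 41.0, 41.2 and 44.4 CPM in the sgNT libraries. Every sgHDAC7 library lay below every sgNT library, with a factor of 1.29 between the nearest pair. MSI2 averaged 30.4 ± 1.97 CPM with sgHDAC7 and 42.2 ± 1.90 CPM with sgNT (SD, n = 3 each), a level of 72.2%. The log2 fold change was -0.47 ± 0.09 (edgeR adjusted p = 0.0317). Its spread between libraries, 6.48% in sgHDAC7 and 4.49% in sgNT, was close to the 5.21% and 4.73% that counting gives at 348 to 467 counts. The MSI2 call is less secure than that of HHEX. Without sgNT replicate 1 it passed (adjusted p = 0.00832). Without any other single library the log2 fold change was -0.42 to -0.51 and edgeR gave adjusted p = 0.0552 to 0.153. The exact two-sided permutation test gave p = 0.1 here as well. MSI1, the other Musashi gene, is not analysed here.

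CD34 differed more between replicates than between guides. It had 30.2, 13.2 and 12.5 CPM in sgHDAC7 replicates 1, 2 and 3, and 56.8, 15.3 and 16.1 CPM in those of sgNT. Replicate 1 was the highest library of each group, and the groups overlapped because sgHDAC7 replicate 1 lay above sgNT replicates 2 and 3. Replicate 1 stood 2.35 times above the mean of the other libraries in sgHDAC7 and 3.63 times above it in sgNT. CD34 averaged 18.65 ± 10.005 CPM with sgHDAC7 and 29.4 ± 23.8 CPM with sgNT (SD, n = 3 each), and its log2 fold change of -0.65 ± 0.51 did not pass (edgeR adjusted p = 0.533). The exact two-sided permutation test gave p = 0.5. Between libraries with the same number, the log2 ratio of sgHDAC7 to sgNT was -0.90 in replicate 1, -0.20 in replicate 2 and -0.34 in replicate 3, on the scale of log2(CPM + 0.5). The sgHDAC7 library was thus the lower of each such pair, although the counting intervals overlapped in replicates 2 and 3. The 95% counting intervals were 11.2 to 15.5 and 10.6 to 14.7 CPM in sgHDAC7 replicates 2 and 3, and 13.1 to 17.8 and 13.7 to 18.7 CPM in those of sgNT.

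The guide difference of CD34 depended on how replicate 1 was treated. With an added term for replicate 1 of both groups the log2 fold change was -0.55 ± 0.13 and passed (edgeR adjusted p = 0.0192), over a range of 0.0192 to 0.793 among 16 alternatives. On replicates 2 and 3 alone it was -0.28 and did not pass (edgeR adjusted p = 0.179). Without sgNT replicate 1 the sign turned, and the estimate was 0.255 on the log2 scale (edgeR adjusted p = 0.662). The replicate 1 term assumes that the guides differ by the same log2 amount in replicate 1 as in the others. Among all tested genes, the replicate 1 shift of CD34, a log2 difference of 1.51 averaged over the guides, ranked second from the top. The median absolute shift was 0.132, and 0.824% of genes shifted by 1 or more. HHEX, MSI2 and KIT had shifts of 0.01, 0.02 and -0.23.

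**Figure D1:**
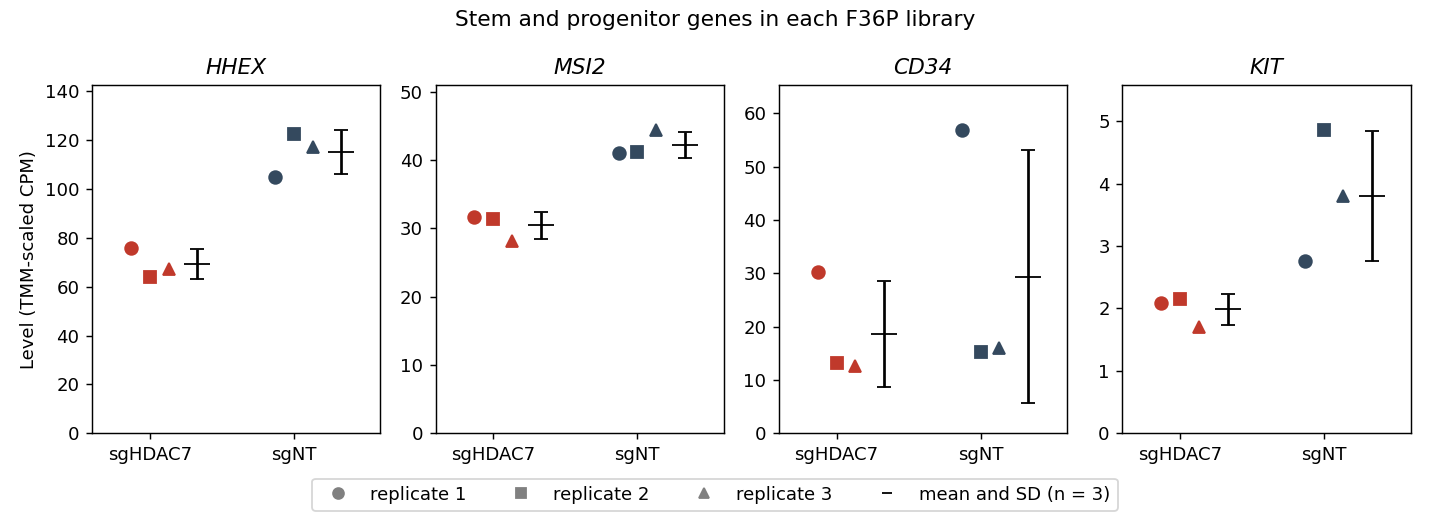
Level of each gene (vertical axes, TMM-scaled CPM from 0) in every library, sgHDAC7 in red and sgNT in dark blue, with 1 marker shape per replicate number; black bars are the mean and SD of 3 libraries. HHEX, MSI2 and KIT do not overlap between the guides, while CD34 is highest in replicate 1 of each guide, at 30.2 CPM with sgHDAC7 and 56.8 CPM with sgNT.

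KIT stood near the lower end of what was tested. It had 2.09, 2.16 and 1.70 CPM in the sgHDAC7 libraries and 2.77, 4.85 and 3.80 CPM in the sgNT libraries, from 21 to 26 and 28 to 54 counts. The groups did not overlap, but the 95% counting intervals of the nearest pair did, at 1.40 to 3.19 CPM in sgHDAC7 replicate 2 and 1.84 to 4.00 CPM in sgNT replicate 1. KIT averaged 1.98 ± 0.25 CPM with sgHDAC7 and 3.81 ± 1.04 CPM with sgNT (SD, n = 3 each), a level of 52.1%. Its log2 fold change of -0.94 ± 0.29 was the furthest from 0 among the 4 genes and did not pass (edgeR adjusted p = 0.113). The exact two-sided permutation test gave p = 0.1. Counting at this depth gives a coefficient of variation of 20.4% in sgHDAC7 and 15.7% in sgNT, against 12.5% and 27.4% measured.

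For KIT, the sgNT library nearest to sgHDAC7 was replicate 1. The log2 ratios between libraries with the same number were -0.33, -1.01 and -0.97 for replicates 1, 2 and 3. Without sgNT replicate 1 the log2 fold change was -1.12 and passed (edgeR adjusted p = 0.0282). On replicates 2 and 3 alone it was -1.17 and passed (edgeR adjusted p = 0.0136). A replicate 1 term gave -0.92, which did not pass (edgeR adjusted p = 0.0558). Over 15 alternatives the adjusted p ran from 0.0136 to 0.333, and every log2 fold change was below 0. The ligand KITLG and the related receptor genes FLT3, CSF1R, PDGFRA and PDGFRB are not analysed here.

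**Figure D2:**
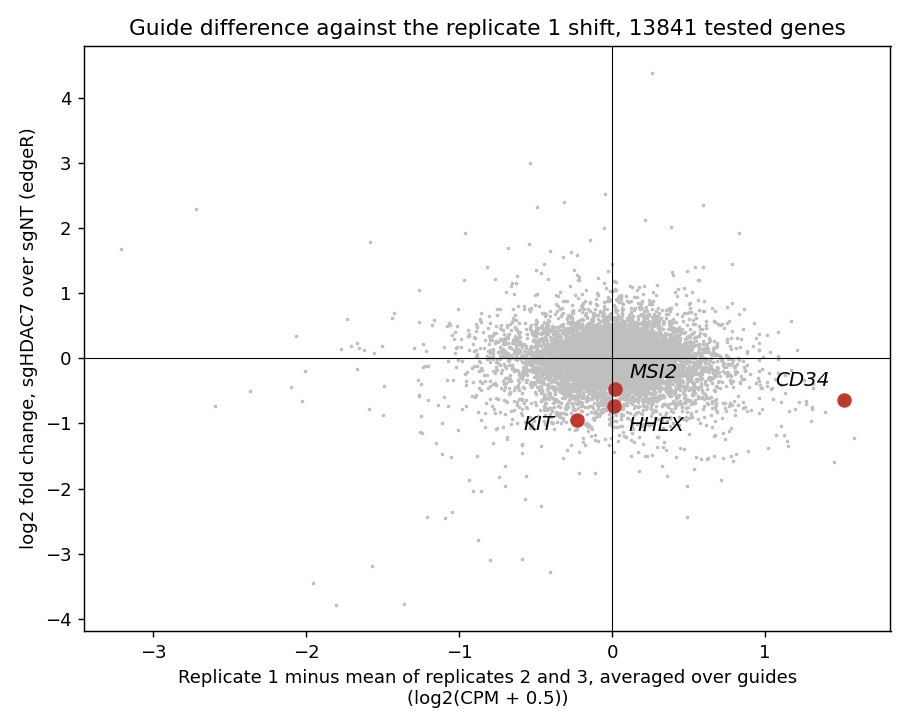
Each grey point is a tested gene. The horizontal axis gives replicate 1 minus the mean of replicates 2 and 3, averaged over the guides, in log2(CPM + 0.5), and the vertical axis the edgeR log2 fold change of sgHDAC7 over sgNT. HHEX and MSI2 lie at shifts of 0.01 and 0.02, KIT at -0.23, and CD34 at 1.51, near the right edge of the cloud.

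Set side by side, 2 of the 4 genes, HHEX and MSI2, were lower with group as the only term (edgeR adjusted p under 0.05), against 1.7% of all tested genes lower and 1.16% higher. For 3 of the 4 the groups did not overlap with sgHDAC7 lower, against 12.2% of all tested genes. With the replicate 1 term HHEX, MSI2 and CD34 passed as lower, against 6.81% of all tested genes. HHEX kept an adjusted p under the threshold in 14 of 16 alternative fits, MSI2 in 11 of 16, CD34 in 1 of 16 and KIT in 2 of 15. HHEX, MSI2 and KIT had a log2 fold change below 0 in each of these fits, and CD34 in 15 of 16. The adjusted p of HHEX ran from 1.81e-10 on replicates 2 and 3 alone to 0.0603, and that of MSI2 from 0.000343 to 0.153.

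**Figure D3:**
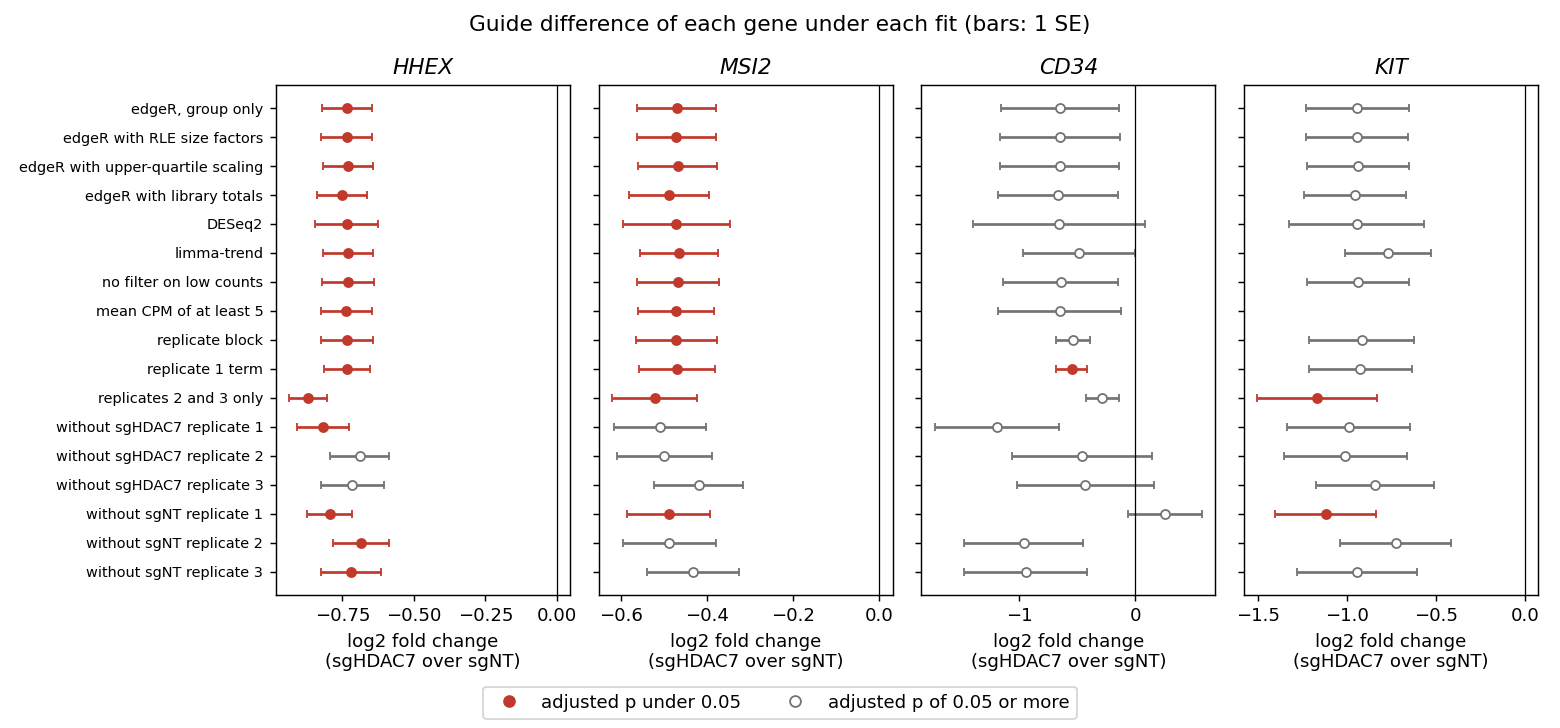
The log2 fold change of sgHDAC7 over sgNT (horizontal axes, scaled separately, bars 1 SE) under each fit named on the left; filled red points have an adjusted p under 0.05. HHEX lies between -0.87 and -0.69 in every fit, and CD34 between -1.19 and 0.255, with its single positive value where sgNT replicate 1 is left out.

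To compare levels between the genes, CPM were divided by the summed exon length in GENCODE 29, which gives CPM per kilobase. HHEX was the most abundant, with 27.4 ± 2.44 in sgHDAC7 and 45.5 ± 3.57 in sgNT (SD, n = 3 each). CD34 followed with 2.02 ± 1.09 in sgHDAC7 and 3.19 ± 2.58 in sgNT (n = 3 each). MSI2 had 1.42 ± 0.09 in sgHDAC7 and 1.96 ± 0.09 in sgNT (n = 3 each). These neighbours did not differ beyond their spread, since CD34 had 1.36 to 3.28 in sgHDAC7 and 1.66 to 6.16 in sgNT. KIT was the lowest, with 0.36 ± 0.04 in sgHDAC7 and 0.68 ± 0.19 in sgNT (CPM per kilobase, n = 3 each), below every library of the other genes. The order of the means was the same in both groups, but the place of CD34 above MSI2 rested mostly on replicate 1. In sgNT replicates 2 and 3 CD34 had 1.66 and 1.74, and MSI2 1.92 and 2.07. In sgHDAC7 replicates 2 and 3 CD34 had 1.43 and 1.36, and MSI2 1.46 and 1.31. MSI2 has 21.5 kb of annotated exons over 19 transcripts, so its value would be higher if a shorter transcript were the main one in these cells. By CPM in sgNT, HHEX stood above 86.8% of the 16315 genes, MSI2 above 66.2%, CD34 above 58.3% and KIT above 30.2%.

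The wider set of stem and progenitor transcription factors leaned lower in sgHDAC7, but it was listed with earlier results of these data known. Of 38 listed factors, HHEX among them, 27 were tested, and 20 of these had a log2 fold change below 0. The median over the 27 was -0.13, against -0.0016 over all tested genes. With group as the only term HHEX was the single call, against 1.7% of all tested genes lower and 1.16% higher. With the replicate 1 term 10 of 27 were lower and 0 higher, against 6.81% and 5.78% of all tested genes. At an unadjusted p under 0.05 with group alone, edgeR gave 9 lower and 0 higher, against 9.99% and 9.18% of all tested genes. DESeq2 called 3 lower and 0 higher after adjustment, against 3.04% and 2.1% of all tested genes. Leaving out sgNT replicate 1 gave 6 lower and 0 higher calls, in a fit that called 6.18% of all tested genes lower and 5.29% higher. Leaving out sgHDAC7 replicate 2 or 3 gave 0 adjusted calls in edgeR. At an unadjusted p under 0.05 these fits had 8 and 7 factors lower and 0 higher, against 7.67% and 8.01% of all tested genes lower and 6.04% and 6.44% higher. On replicates 2 and 3 alone the counts were 13 lower and 1 higher, against 10.9% and 9.72% of all tested genes.

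ERG, an ETS factor of stem cells, passed with the replicate 1 term and not with group alone, at 10.9 ± 5.25 CPM with sgHDAC7 and 26.6 ± 14.5 CPM with sgNT (n = 3 each; log2 -1.26 with that term). GFI1, a repressor that restrains stem cell division, stood at 11.6 ± 2.82 CPM with sgHDAC7 and 24.5 ± 11.1 CPM with sgNT (log2 -1.04 with that term). MYC, the growth regulator, had 725 ± 69.5 CPM with sgHDAC7 and 900 ± 84.1 CPM with sgNT, a log2 difference of -0.31. IKZF2, ETV6 and the histone methyltransferase gene KMT2A had log2 differences of -0.56, -0.34 and -0.26 with the term. With group as the only term edgeR gave these 6 genes adjusted p = 0.0884 to 0.349. ERG and GFI1 varied widely between libraries, and neither passed when any single library was left out.

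**Figure D4:**
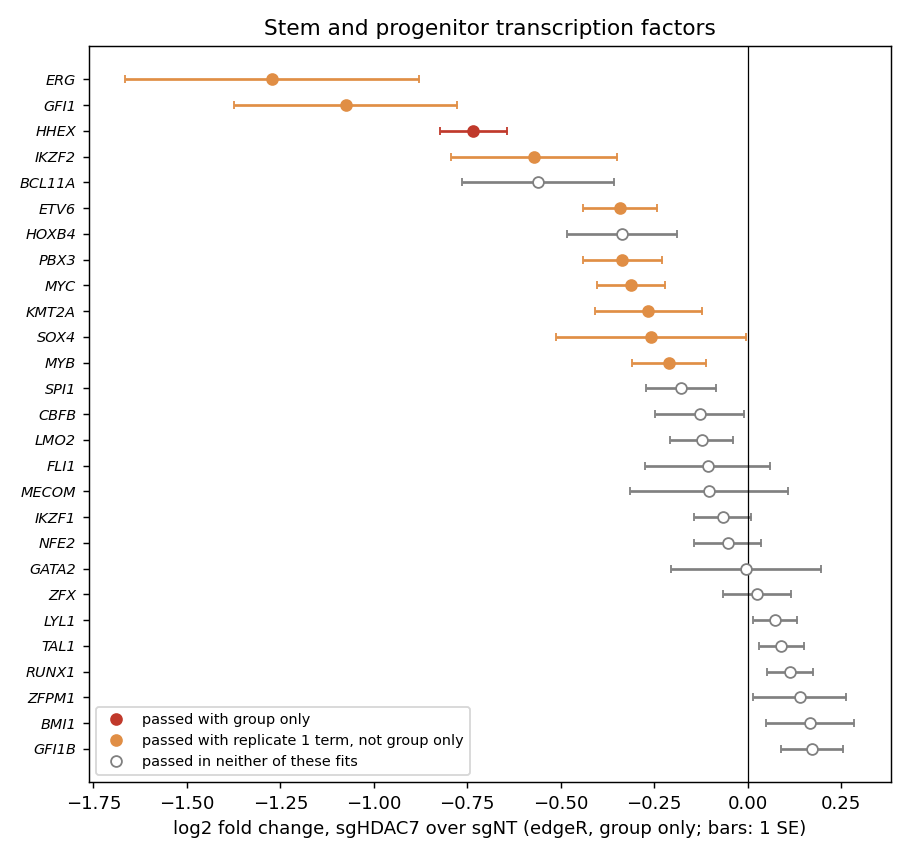
The log2 fold change of sgHDAC7 over sgNT (horizontal axis, edgeR with group as the only term, bars 1 SE) for the 27 tested transcription factors; red passed with group alone, orange with the replicate 1 term and not with group alone, open points in neither of these fits. HHEX is the only red point, with a shorter error bar than ERG and GFI1 above it, and 20 of the 27 points lie left of 0.

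Genes of KIT signalling changed in single members. Of 47 listed genes, KIT itself included, 40 were tested, with a median log2 fold change of -0.07. With group alone 2 were lower and 1 higher, against 1.7% and 1.16% of all tested genes. SH2B3, the adaptor LNK that restrains KIT and cytokine receptor signalling, fell to 99.7 ± 3.14 CPM with sgHDAC7, against 162 ± 30.2 CPM with sgNT (n = 3 each; log2 -0.70 ± 0.12, edgeR adjusted p = 0.0226). PIK3CA, a catalytic subunit of phosphoinositide 3-kinase, had 89.0 ± 3.61 CPM with sgHDAC7 and 117 ± 5.91 CPM with sgNT (log2 -0.39 ± 0.07, edgeR adjusted p = 0.0236). PIK3R2, a regulatory subunit of the same kinase, was higher, with 166 ± 14.8 CPM with sgHDAC7 and 116 ± 12.2 CPM with sgNT (log2 0.52 ± 0.10, edgeR adjusted p = 0.0275). Among the single-library omissions, SH2B3 and PIK3CA passed only without sgNT replicate 1, and PIK3R2 without sgHDAC7 or sgNT replicate 1. With the replicate 1 term the list held 8 lower and 4 higher genes, against 6.81% and 5.78% of all tested genes. The adaptor GAB2, the kinases MAP2K1, LYN and PIK3CD and the inhibitor SPRED1 were among the lower (log2 -0.48, -0.30, -0.24, -0.29 and -0.33). The phosphatase PTPN6 was among the higher (log2 0.40). Without sgNT replicate 1 the counts with group alone were 6 lower and 4 higher, against 6.18% and 5.29% of all tested genes. Without sgHDAC7 replicate 1 they were 1 and 1, against 1.05% and 0.6%. Without any other single library edgeR called 0 after adjustment, with 5 to 9 lower and 1 to 3 higher at an unadjusted p under 0.05. At that threshold the share of all tested genes that were lower was 7.67% and 8.01% without sgHDAC7 replicates 2 and 3, and 7.85% and 7.87% without those of sgNT. The share higher ran from 6.04% without sgHDAC7 replicate 2 to 7.07% without sgNT replicate 3.

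Of 30 surface markers, CD34 and others that accompany it, 20 were tested. Their median log2 fold change was -0.14, and 12 were below 0. At an unadjusted p under 0.05 with group alone, edgeR gave 3 lower and 4 higher, against 9.99% and 9.18% of all tested genes. PTPRC, the pan-leukocyte antigen CD45, was the single call with group alone, against 1.7% of all tested genes lower and 1.16% higher. It fell to 299 ± 19.7 CPM with sgHDAC7, against 425 ± 14.4 CPM with sgNT (n = 3 each; log2 -0.51 ± 0.07, edgeR adjusted p = 0.00836), and its groups did not overlap. PTPRC missed the threshold without sgHDAC7 replicate 2 or 3 or sgNT replicate 2. With the replicate 1 term 4 were lower and 2 higher, against 6.81% and 5.78% of all tested genes. CD34, ESAM and the myeloid antigen CD33 were lower beside PTPRC (log2 -0.55, -0.59 and -0.33), and the adhesion receptor ADGRG1 and the integrin chain ITGA4 higher (0.52 and 0.18). Of the relatives of CD34, PODXL2 had 46.1 ± 6.04 CPM with sgHDAC7 and 54.6 ± 3.94 CPM with sgNT. PODXL had 3.08 ± 1.29 CPM with sgHDAC7 and 2.66 ± 0.54 CPM with sgNT. Neither passed (log2 -0.24 ± 0.11 and 0.21 ± 0.34, edgeR adjusted p = 0.261 and 0.787). The lower calls numbered 2 without replicate 1 of sgHDAC7 (1.05% of all tested genes) and 2 without that of sgNT (6.18%). Without sgHDAC7 replicate 2 or 3 or sgNT replicate 2 edgeR called 0. At an unadjusted p under 0.05 these 3 fits had 3, 2 and 4 markers lower, against 7.67%, 8.01% and 7.85% of all tested genes. They had 2, 1 and 4 higher, against 6.04%, 6.44% and 6.72%.

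Genes linked to HHEX and MSI2 by their known partners and targets changed in a few cases. Of 14 genes listed for HHEX 9 were tested, with a median log2 fold change of 0.0011. VEGFA, the endothelial growth factor whose gene HHEX can repress, was the single call with group alone. In that fit 1.7% of all tested genes were lower and 1.16% higher. VEGFA was lower, as HHEX was. It fell to 29.5 ± 1.40 CPM with sgHDAC7, against 85.4 ± 22.9 CPM with sgNT (n = 3 each; log2 -1.53 ± 0.18, edgeR adjusted p = 0.00453), and missed the threshold without sgHDAC7 replicate 2 or 3. The corepressor genes TLE3 and TLE4 had log2 fold changes of 0.0011 and -0.20, and EIF4E, whose product HHEX protein binds, 0.12. None of these 3 passed, and they were chosen after their values were seen. At an unadjusted p under 0.05 with group alone, edgeR gave VEGFA lower and EED higher, against 9.99% and 9.18% of all tested genes. EED, also chosen after its value was seen, had a log2 fold change of 0.22 and did not pass (edgeR adjusted p = 0.201). Of 21 genes listed for MSI2, itself among them, 15 were tested, with a median of -0.06. With group alone MSI2 was called lower and HSP90AA1 higher, against the same 1.7% and 1.16%. That chaperone gene had 3414 ± 381 CPM with sgHDAC7 and 2626 ± 110.3 CPM with sgNT (n = 3 each; log2 0.38 ± 0.09, edgeR adjusted p = 0.04997). It missed the threshold with upper-quartile or total scaling, in limma, and without any single replicate 2 or 3 library. With the replicate 1 term 4 of the 15 were lower and 1 higher, against 6.81% and 5.78% of all tested genes. MYC and IKZF2 were among the lower beside MSI2 (log2 -0.31 and -0.56). HOXA9 and AHR, other genes tied to MSI2, are not analysed here.

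Markers of other cells that carry KIT or CD34 were examined beside these results. Of 11 mast cell and basophil markers 8 were tested. Their summed level was 621 to 1069 CPM in sgHDAC7 and 684 to 974 CPM in sgNT, so the groups overlapped. With group alone, edgeR and DESeq2 called 0 of them, and 0 had an unadjusted p under 0.05. CPA3 was higher with the replicate 1 term (log2 0.38). KIT passed on replicates 2 and 3 alone and also without sgNT replicate 1. On replicates 2 and 3 alone, 3 of the 8 markers were lower and 1 higher, against 10.9% and 9.72% of all tested genes. The lower were SIGLEC6 and the tryptase genes TPSAB1 and TPSB2 (log2 -0.75, -0.81 and -0.61), and the higher was CPA3 (0.33). TPSAB1 and TPSB2 are near-identical, so their reads may be split between copies. Leaving out sgHDAC7 replicate 1 gave 0 adjusted calls, with 4 lower and 0 higher at an unadjusted p under 0.05, against 10.3% and 7.59% of all tested genes. Leaving out sgNT replicate 1 gave 0 adjusted calls, with 0 lower and 2 higher, against 13.7% and 13%. Of 12 endothelial markers 6 were tested, and their summed level was 561.5 to 601 CPM in sgHDAC7 and 702 to 717 CPM in sgNT, without overlap. That sum rests mostly on EGFL7 and ENG, which averaged 227 and 216 CPM with sgHDAC7. Of the single genes, EGFL7 and ESAM did not overlap between the groups, while TIE1, TEK, ENG and PECAM1 did. Among all tested genes, 12.2% did not overlap with sgHDAC7 lower. EGFL7 was the single call with group alone (log2 -0.34 ± 0.07, edgeR adjusted p = 0.0317), against 1.7% of all tested genes lower. Among the single-library omissions it passed only without sgNT replicate 1. With the replicate 1 term 2 were lower, EGFL7 and ESAM, and 0 higher, against 6.81% and 5.78% of all tested genes. The defining endothelial genes VWF and CDH5 are not analysed here. The part of either list in the CD34 and KIT values was not tested. Of the 15 erythroid markers, only HBD was higher with group alone (5.74-fold, edgeR adjusted p = 0.00139), against 1.16% of all tested genes. With the replicate 1 term 9 were higher, against 5.78% of all tested genes. Among these 9 were ALAS2, the first enzyme of haem synthesis in red cells, and the glycophorin gene GYPB (log2 0.60 and 0.38 with that term). HBA1, HBA2 and HBG2 were higher too (0.55, 0.63 and 0.50), but reads of these near-identical globin genes may be split between copies.

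The profiles most like each gene over the 6 libraries were found among genes with a mean of at least 10 CPM. Likeness was the root-mean-square difference of log2(CPM + 0.5) after centring, and it describes these libraries alone. For HHEX the 3 nearest of 9690 genes were the histone gene H2BC21, the unfolded protein response factor XBP1 and the ubiquitin ligase gene MYLIP (0.05, 0.05 and 0.06, against a median of 0.399). For MSI2 they were NBPF12, CAAP1 and C4orf46 (0.05, 0.05 and 0.06, median 0.273). For CD34 they were the transcription factor gene TFEC, the surface protein gene CD109 and RAP1GAP2. Their differences of 0.20, 0.27 and 0.28, against a median of 0.778, show that no gene followed CD34 as closely. TFEC had 39.7 CPM in sgNT replicate 1 and at most 20.2 CPM in every other library. For KIT the nearest were KLHL24, the fatty acid activating enzyme ACSL1 and the tubulin gene TUBE1 (0.07, 0.10 and 0.11, median 0.463). ACSL1 averaged 42.9 ± 0.39 CPM with sgHDAC7 and 77.3 ± 17.6 CPM with sgNT (n = 3 each), and like KIT had its lowest sgNT value in replicate 1. Among the 4 genes themselves, HHEX lay nearest to MSI2 (0.17) and to KIT (0.18), and CD34 lay 0.73 to 0.90 from the others.

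**Figure D5:**
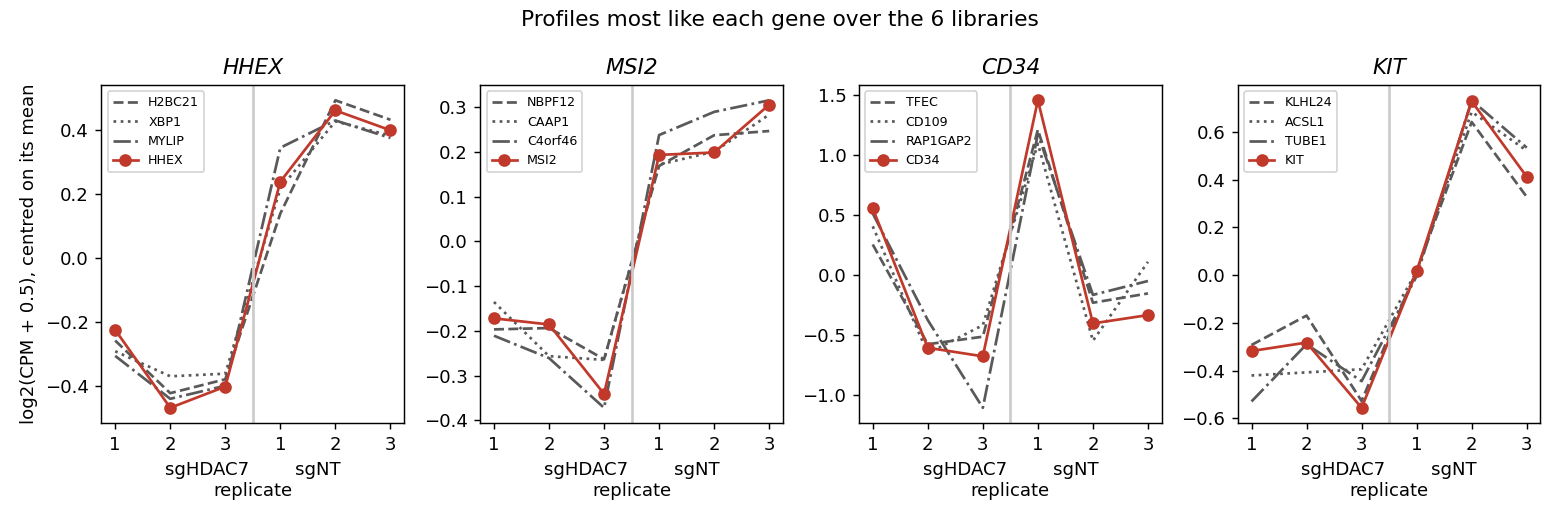
Centred log2(CPM + 0.5) (vertical axes) of each gene in red and of the 3 genes with the nearest profile in grey, over sgHDAC7 and sgNT replicates 1 to 3; lines only join the points of a gene. The HHEX and MSI2 sets are lower in every sgHDAC7 library than in every sgNT library, the CD34 set peaks in replicate 1 of each guide, and the KIT set is highest in sgNT replicate 2.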

How the data were processed

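Bulk poly-A RNA of 6 F36P libraries was measured, 3 with sgHDAC7 and 3 with sgNT. The authors deposited whole-number counts per gene (100% of values are whole, although the table's name says CPM). Genome build hg38 and edgeR 3.32.1 are named in the submitters' processing notes without a stated role. For the aligner, the counter, the annotation and strand, the entry is: not given in the sources used here. Columns named HDAC7 were taken as sgHDAC7, and those named NC as sgNT, the only other group.

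From these counts, genes whose mean CPM reached 1 were tested with edgeR 4.0.16 (R 4.3.3), TMM scaling, group as the only term, two-sided, Benjamini-Hochberg adjusted over 13841 genes at a threshold of 0.05. The standard error is the log2 fold change over the root of the F statistic. A count of 3 corresponds to 0.242 to 0.296 CPM. Counting intervals (exact Poisson, 95%) cover counting error only. DESeq2 1.42.0, limma 3.58.1 on log2(CPM + 0.5), other scalings, filters, terms and single-library omissions were alternatives. The scripts were tested on simulated counts.

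The members, lists and tests were chosen with earlier results of these data known. Named are the 4 genes, their relatives, and up to 6 genes per list that passed with group alone and up to 6 more with the replicate 1 term, by smallest adjusted p. Named too are the 3 nearest profiles per gene, and genes said to be chosen later. A few genes named by the rule are not reported here.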

Additional observations from a re-analysis of the deposited data

How the results depend on the processing

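HHEX and MSI2 stayed on their side of the threshold under every change of scaling, filter, tool and model term, and KIT and CD34 under all but those given here. When single libraries were left out, the log2 fold change was -0.817 to -0.685 for HHEX, -0.51 to -0.42 for MSI2, -1.19 to 0.255 for CD34 and -1.12 to -0.727 for KIT. CD34 reversed to 0.255 without sgNT replicate 1. CD34 passed with the replicate 1 term (-0.546). KIT passed on replicates 2 and 3 only (-1.17) and without sgNT replicate 1 (-1.12). With a stricter filter of a mean CPM of at least 5, KIT was not tested. Among all genes, 161 were higher and 235 lower. DESeq2 gave 290 and 421, the replicate block 430 and 568, the replicate 1 term 800 and 943, and replicates 2 and 3 only 1345 and 1502. Without single libraries the counts ran from 13 to 732 higher and from 13 to 856 lower, highest without sgNT replicate 1. The cause of these differences in the counts was not tested, and the fits that leave out libraries also hold fewer samples. For the 8 lists, 179 of 256 counts over direction and alternative stayed within 1.5 times. Counts of 0 that stayed at 0 are among the 179, so this share does not measure how stable the calls were.

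Replicate numbers were not treated as pairing the samples, because the deviations of same-numbered libraries from their group means correlated at 0.303, 0.107 and 0.0968 and not all exceeded 0.1. sgHDAC7 replicates 2 and 3 each correlated better with the other number in sgNT (0.159 and 0.155). With the replicate block HHEX, MSI2, CD34 and KIT had log2 fold changes of -0.73, -0.47, -0.54 and -0.92 (edgeR adjusted p = 0.00283, 0.0204, 0.0588 and 0.0951). The block called 4.1% of all tested genes lower and 3.11% higher, and 7 of the 27 stem and progenitor factors lower and 0 higher, ERG, GFI1, MYC, IKZF2, ETV6 and KMT2A among them. Of the surface markers it called 3 lower and 1 higher. Depth limits KIT most, at 21 to 54 counts a library.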

Other observations

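Other genes also stood high in replicate 1 of both guides, chosen here after their values were seen from those with the largest such shift. OOSP4A had 3.78 CPM in sgHDAC7 replicate 1 and 10.97 CPM in sgNT replicate 1. IFI44, an interferon-induced gene, had 3.54 CPM in sgHDAC7 replicate 1 and 5.93 CPM in sgNT replicate 1, and PLCH1, a phospholipase gene, had 1.45 CPM in sgHDAC7 replicate 1 and 3.95 CPM in sgNT replicate 1. In replicates 2 and 3 of the 2 guides, OOSP4A had 0.89 to 3.04 CPM, IFI44 1.21 to 1.81 CPM and PLCH1 0.17 to 1.14 CPM. PLCH1 thus fell below the level of 3 counts in sgHDAC7 replicate 2 (0.259 CPM). Their height in replicate 1 follows from how they were chosen. In these 3 genes, as in CD34, the sgNT library of replicate 1 was the highest of the 6.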
